A study of Mus musculus with 7 samples.

Results

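The genes described here are 10 genes that mark the astrocyte lineage: Gfap, Aqp4, S100b, Aldh1l1, Aldoc, Gja1, Glul, Nfia, Nfib and Cd44. They were listed by name for their known place in astrocytes, with earlier results of these data known, and each was found under 1 identifier among the 55335 gene identifiers counted. The cells, neural stem cells (NSCs) of the mouse, are cultured precursors of neurons and glia, here on the FVB/N background, without any treatment. The 4 wild-type (WT) samples carried the label Smchd1 Wild-type, and the 3 Smchd1-null samples carried the mutant allele Smchd1MommeD1 of a gene for a chromatin repressor. All were grown in NeuroCult medium with the growth factors EGF and bFGF, which keep NSCs dividing, a condition of growth and not of astrocyte differentiation. The age of the donor animals, and whether samples of 1 genotype came from separate animals or cultures, were not given in the sources used here, so that p-values measure only the spread between these samples. Polyadenylated RNA was read as long direct-cDNA reads in 2 batches, and WT replicate 1 was sequenced in both.

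Astrocytes are the glial cells that clear glutamate and potassium from around synapses, hold water and ion balance at blood vessels and feed neurons. Their precursors are radial glia, which already carry part of the astrocyte gene set, and NSCs in culture resemble them. The onset of the astrocyte programme is known to need the nuclear factor I (NFI) proteins, among them Nfia and Nfib, together with Notch, the gp130-JAK-STAT arm and BMP signalling. Effector genes such as Gfap, Aqp4 and S100b come on later in the lineage, and Gfap is the textbook target of STAT3.

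Promoter sequences are shown for Gfap, S100b, Aldoc and Glul, because these effector genes varied most between samples among those with a promoter entry, and because NFI and STAT factors are known regulators of the lineage. Each run holds 250 bases before and 50 bases from the annotated start site on, taken from RefSeq on GRCm38.p6 and written 5′ to 3′ on the strand of the gene. Capitals mark every match to the NFI half-site TTGGC, in either orientation, or to the STAT palindrome TTCNNNGAA.
Gfap, chr11:102897151-102897450, minus strand: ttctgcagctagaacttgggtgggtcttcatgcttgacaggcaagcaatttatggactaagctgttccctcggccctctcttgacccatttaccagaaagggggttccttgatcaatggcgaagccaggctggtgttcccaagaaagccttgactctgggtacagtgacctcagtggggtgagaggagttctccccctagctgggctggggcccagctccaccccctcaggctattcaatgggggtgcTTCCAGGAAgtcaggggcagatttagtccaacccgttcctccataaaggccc
S100b, chr10:76253586-76253885, plus strand: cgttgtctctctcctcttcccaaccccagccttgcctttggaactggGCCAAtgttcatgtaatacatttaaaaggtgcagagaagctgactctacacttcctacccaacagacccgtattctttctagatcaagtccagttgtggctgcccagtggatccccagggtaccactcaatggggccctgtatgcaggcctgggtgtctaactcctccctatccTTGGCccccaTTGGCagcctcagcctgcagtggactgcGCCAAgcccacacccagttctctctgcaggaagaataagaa
Aldoc, chr11:78322823-78323122, plus strand: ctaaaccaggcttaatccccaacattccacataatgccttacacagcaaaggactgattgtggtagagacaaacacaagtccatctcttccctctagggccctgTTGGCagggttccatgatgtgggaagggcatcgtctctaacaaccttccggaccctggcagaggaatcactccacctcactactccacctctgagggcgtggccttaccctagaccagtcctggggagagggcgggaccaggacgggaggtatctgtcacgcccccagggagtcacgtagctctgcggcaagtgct
Glul, chr1:153899679-153899978, plus strand: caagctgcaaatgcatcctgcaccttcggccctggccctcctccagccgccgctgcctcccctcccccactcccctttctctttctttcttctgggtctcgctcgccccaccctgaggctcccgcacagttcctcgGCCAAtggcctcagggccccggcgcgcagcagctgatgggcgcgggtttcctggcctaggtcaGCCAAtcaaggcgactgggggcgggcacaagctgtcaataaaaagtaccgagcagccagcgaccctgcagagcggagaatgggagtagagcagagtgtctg
The Gfap window held 1 STAT palindrome that began 2 bases before the start site and no NFI half-site. S100b had 4 NFI half-sites, Glul had 2 and Aldoc had 1, none of them with a STAT palindrome, while a second annotated start of Aldoc had 2 STAT palindromes and no NFI half-site. The windows of Aldh1l1, Gja1, Nfia and Cd44 had neither. Of 32851 promoters of the same length, 46.7% held an NFI half-site and 8.30% a STAT palindrome, so that a half-site in particular is a common string of letters. The matches describe the letters of these windows only.

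Each sample had between 2.74 and 7.74 M counts in total, and 3 counts, taken as the floor of detection, corresponded to 0.399 to 1.13 counts per M counts of the scaled library (CPM). Floors and the exact intervals of count ratios cover counting error only. Smchd1 itself had 55.7 to 74.7 CPM in the WT samples and 12.8 to 18.4 CPM in the Smchd1-null samples, so the labels held (log2 fold change -2.15, adjusted p = 0.00011, limma). Markers of neural stem cells and radial glia were present in every sample, with 2262 CPM of Vim and, picked after its values were seen, 6603 CPM of Fabp7 on average in WT. Microglial markers summed to at most 1.11 CPM, endothelial markers to at most 3.93 CPM and mesenchymal markers to at most 3.94 CPM in any sample, and Tyrobp and C1qa of microglia and Lum of mesenchymal cells had 0 counts throughout. WT replicate 4 stood apart. Of the 13305 genes tested, 257 (1.93%) were at least 2-fold above every other WT sample in WT replicate 4, against 40, 52 and 28 genes for WT replicates 1, 2 and 3. At least 2-fold below every other WT sample were 151 genes in WT replicate 4, against 91, 196 and 195 in WT replicates 1, 2 and 3, so that it stood apart in the upward direction. Results that rest on this sample are given with and without it, except the counts of list genes by direction, which include it.

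Levels were first compared between the genes, on the scale of CPM per kilobase of the deposited gene length. Aldoc was the highest of the 10 genes in WT, with 147 ± 73.6 CPM per kilobase (SD, n = 4). It was followed by Glul with 38.1 ± 19.6, S100b with 15.3 ± 19.2, Nfib with 14.9 ± 2.88, Gja1 with 11.5 ± 2.20 and Nfia with 10.5 ± 1.92 CPM per kilobase. Aldh1l1 stood at 5.76 ± 1.32, Cd44 at 2.60 ± 0.526, Gfap at 0.576 ± 0.600 and Aqp4 at 0.442 ± 0.477 CPM per kilobase. Thus the mature markers Gfap and Aqp4 were the lowest and the enzymes of glycolysis and glutamine synthesis the highest. Ranges over the 4 WT samples were apart between Aldoc and Glul, between Nfia and Aldh1l1, between Aldh1l1 and Cd44 and between Cd44 and Gfap. They overlapped between Glul and S100b, S100b and Nfib, Nfib and Gja1, Gja1 and Nfia, and Gfap and Aqp4. Within these pairs the first gene was the higher in all 4 WT samples for Glul and S100b, in 3 of 4 for Nfib and Gja1 and for Gfap and Aqp4, in 2 of 4 for Gja1 and Nfia, and in 1 of 4 for S100b and Nfib. The order of Glul and S100b thus held in each library, whereas the other 4 pairs changed order between libraries and did not differ beyond their spread. The third place of S100b came from WT replicate 4, since without that sample S100b had 5.77 ± 3.02 CPM per kilobase (SD, n = 3) and lay below Nfib, Nfia and Gja1. In Smchd1-null samples the levels per kilobase were 81.8 ± 26.4 for Aldoc, 21.97 ± 2.46 for Glul, 13.6 ± 1.17 for Nfib and 3.25 ± 1.80 for S100b (SD, n = 3). A direct-cDNA read counts 1 molecule whatever its length, and by CPM without division by length 8 of the 10 genes took another place, with Nfib second after Aldoc.

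**Figure D1:**
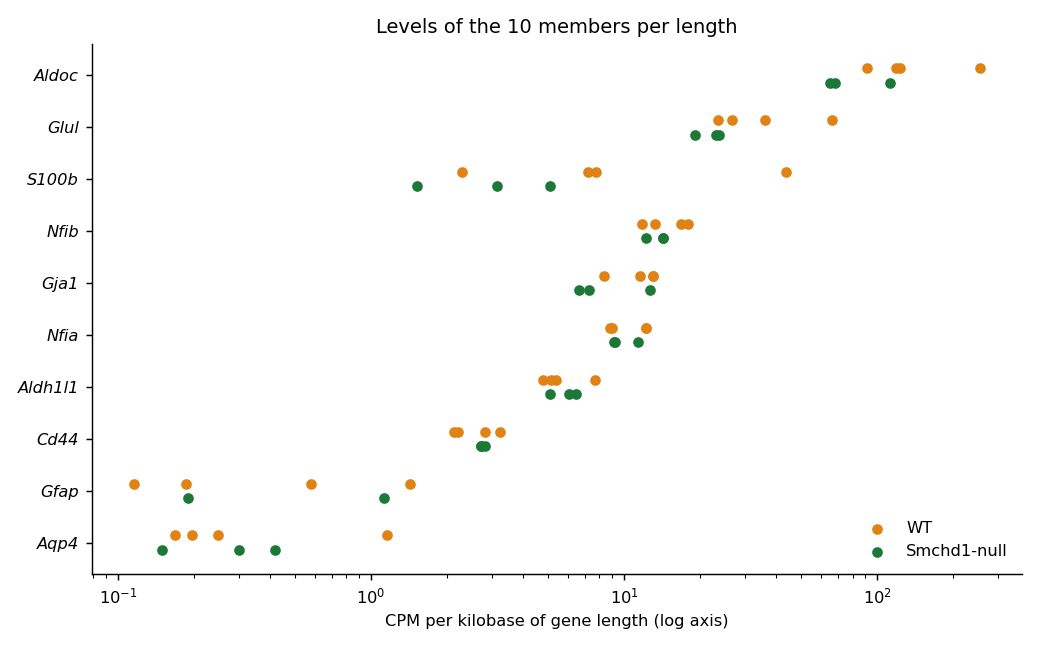
Levels of the 10 astrocyte lineage genes in CPM per kilobase of gene length, on a log axis, with 1 point per sample in WT (orange) and Smchd1-null (green). Aldoc lies highest and Gfap and Aqp4 lowest, S100b spreads most in WT, and the Smchd1-null sample with 0 counts of Gfap is not drawn.

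Gfap and Aqp4 are the classical markers of mature astrocytes. Gfap, the gene of the astrocyte intermediate filament (ENSMUSG00000020932, chr11:102887336-102900912 on GRCm38, minus strand), had 2, 11, 3 and 35 counts in WT replicates 1 to 4 and 0, 6 and 22 counts in Smchd1-null replicates 1 to 3. In CPM scaled by TMM, the trimmed mean of M values, this was 0.488, 2.44, 0.787 and 6.002 in WT and 0, 0.799 and 4.76 in Smchd1-null. Only WT replicates 2 and 4 and Smchd1-null replicates 2 and 3 were above 3 counts, and the groups overlapped. The 0 counts of Smchd1-null replicate 1 allow up to 1.13 CPM. Aqp4, the water channel of astrocyte endfeet (ENSMUSG00000024411, chr18:15389496-15410982, minus strand), had 5, 7, 4 and 42 counts in WT and 5, 7 and 12 in Smchd1-null. Its CPM values were 1.22, 1.55, 1.05 and 7.20 in WT and 1.88, 0.932 and 2.60 in Smchd1-null. The WT samples other than replicate 4 lay within the range of the Smchd1-null samples. Both genes were read rarely, with 79 and 82 counts over all 7 libraries.

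S100b, a calcium-binding protein of astrocytes that is also made in the oligodendrocyte lineage (ENSMUSG00000033208, chr10:76253853-76261159, plus strand), varied most of all. Its counts were 44, 52, 13 and 379 in WT and 6, 35 and 35 in Smchd1-null, or 10.7, 11.5, 3.41 and 65.0 CPM and 2.25, 4.66 and 7.58 CPM. WT replicate 4 was 5.63 times the next WT sample, WT replicate 3 lay below 2 of the 3 Smchd1-null samples, and the log-CPM range over the 7 samples was 4.61 (log2).

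Metabolic enzymes are encoded by Aldoc, Glul and Aldh1l1. Aldoc, the aldolase of brain glycolysis (ENSMUSG00000017390, chr11:78322968-78327781, plus strand), had 403, 298, 386 and 833 CPM in WT and 223, 212 and 366 CPM in Smchd1-null, from 593 to 4860 counts per sample. Smchd1-null replicates 1 and 2 lay below every WT sample and Smchd1-null replicate 3 lay among them. Glul, the glutamine synthetase that converts glutamate to glutamine (ENSMUSG00000026473, chr1:153899944-153909723, plus strand), had 89.1, 136, 101 and 251 CPM in WT and 72.4, 89.6 and 87.2 CPM in Smchd1-null. Only WT replicate 1 fell below the highest Smchd1-null sample. Aldh1l1, a folate enzyme used as a marker of all astrocytes (ENSMUSG00000030088, chr6:90486427-90600203, plus strand), had 24.4, 21.5, 23.3 and 34.8 CPM in WT and 27.4, 29.1 and 22.9 CPM in Smchd1-null. Here the groups were intermixed. Exons of Aldh1l1 and Glul overlap with other annotated genes, but those genes had at most 3 counts in any sample.

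Gja1 and Cd44 act at the cell surface. Gja1, the gap junction protein connexin 43 (ENSMUSG00000050953, chr10:56377330-56402513, plus strand), had 134, 85.7, 119 and 134 CPM in WT and 67.9, 74.5 and 130.1 CPM in Smchd1-null. As for Aldoc, Smchd1-null replicates 1 and 2 were below all WT samples, while Smchd1-null replicate 3 was above 2 of the 4. Cd44, the hyaluronan receptor of astrocyte precursors (ENSMUSG00000005087, chr2:102811141-102901665, minus strand), had 19.0, 14.4, 14.9 and 21.9 CPM in WT and 18.4, 18.5 and 19.0 CPM in Smchd1-null. The Smchd1-null values differed little from each other and lay inside the WT range.

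Nfia and Nfib encode the NFI transcription factors that open the glial programme. Nfia (ENSMUSG00000028565, chr4:97772734-98118874, plus strand) had 133, 96.2, 133 and 97.2 CPM in WT and 99.1, 100.2 and 124 CPM in Smchd1-null. Nfib (ENSMUSG00000008575, chr4:82290173-82705750, minus strand) had 268, 199, 251 and 176 CPM in WT and 213, 183 and 214 CPM in Smchd1-null. Over the 4 WT samples the coefficient of variation was 18.3% for Nfia, 19.2% for Gja1 and 19.3% for Nfib, the lowest of the 10 genes, next to 125% for S100b. That order rested on WT replicate 4, since without it Aldh1l1 was lowest with 6.29%, followed by 15.1% for Nfib, 15.6% for Aldoc, 15.7% for Cd44 and 17.6% for Nfia. Unlike the effector genes, they were highest in WT replicate 1, and Nfib was lowest of all samples in WT replicate 4. Nfia shares 4 exon bases with E130114P18Rik on the opposite strand, which had 155 to 432 counts per sample, and strand was not stated to enter the counting.

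**Figure D2:**
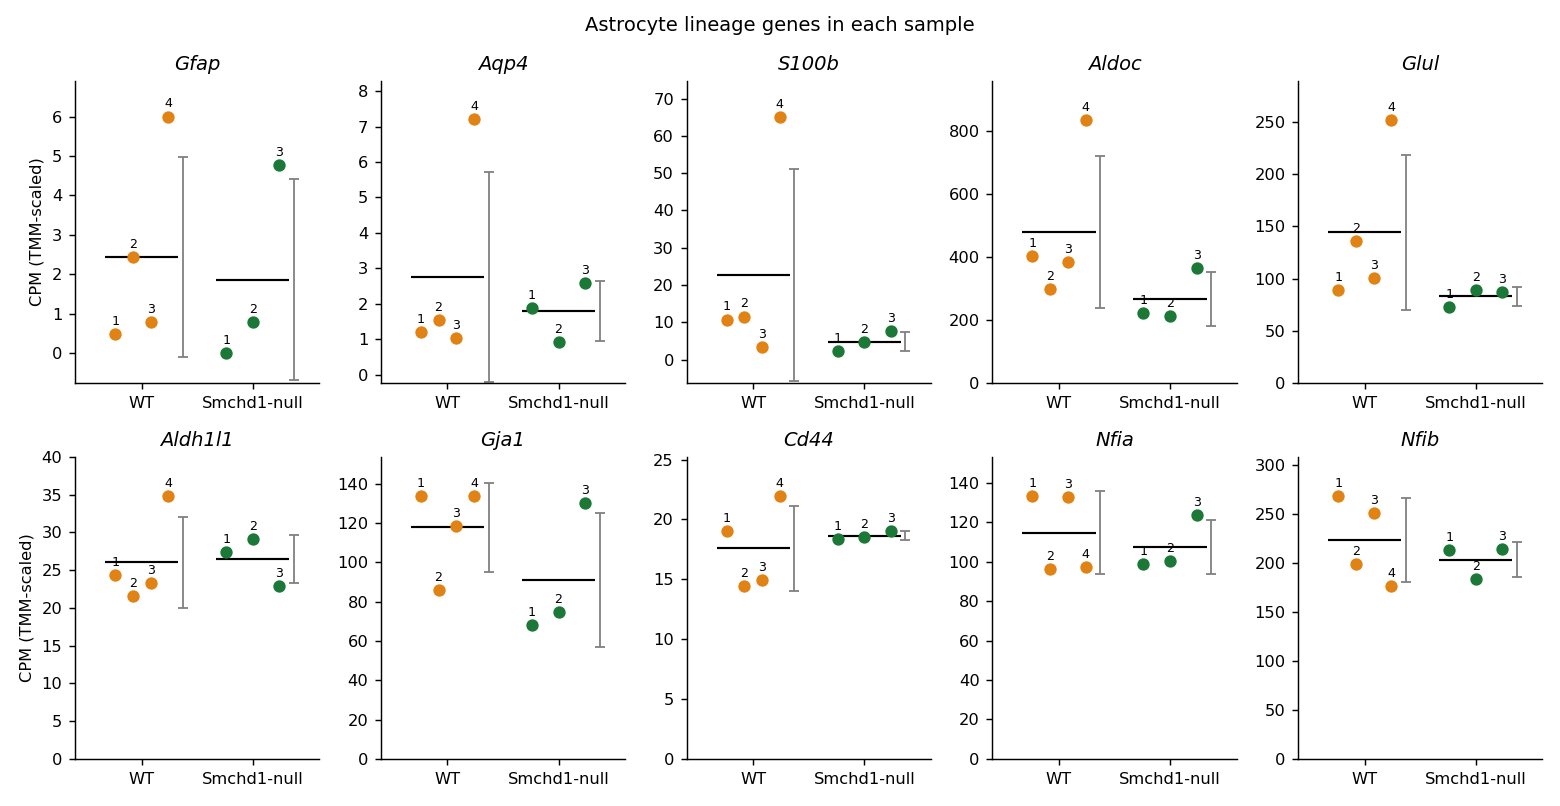
CPM scaled by TMM of the 10 genes in each sample, numbered by replicate, with the group mean as a black line and the SD as a grey bar (n = 4 WT, n = 3 Smchd1-null). WT replicate 4 is the top WT sample in 8 of 10 panels, in that of Gja1 level with WT replicate 1, and is low for Nfia and Nfib.

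The astrocyte effector genes were thus uneven within WT. Set against the summed WT replicates 1 to 3, the rate in WT replicate 4 was 7.40-fold for S100b (exact 95% interval 5.97 to 9.24), 5.59-fold for Aqp4 (3.08 to 10.6), 4.66-fold for Gfap (2.51 to 9.01), 2.32-fold for Aldoc (2.23 to 2.41) and 2.29-fold for Glul (2.13 to 2.47). Smaller ratios were found for Aldh1l1 with 1.51 (1.26 to 1.81), Cd44 with 1.36 (1.08 to 1.71) and Gja1 with 1.198 (1.096 to 1.31). Nfia with 0.813 (0.736 to 0.896) and Nfib with 0.743 (0.691 to 0.798) were below 1. These intervals describe 1 library against 3 and not a condition. Of the 9 genes in the test of genotype, 3 (S100b, Gfap and Aldoc) were at least 2-fold above every other WT sample in WT replicate 4. The share over all genes tested was 1.93%. Gfap was not kept by the filter on low counts without WT replicate 4, so that its place in this count depended on its high value there. Aqp4, which was read too rarely to be tested, was also at least 2-fold above every other WT sample. Together the 10 genes took 0.113%, 0.0848%, 0.102% and 0.162% of counts in WT replicates 1 to 4 and 0.0704%, 0.0693% and 0.0981% in Smchd1-null replicates 1 to 3. Within Smchd1-null, replicate 3 was the highest sample for 8 of the 10 genes, and for 37 of 71 tested genes of the lists described below. The share over all tested genes was not counted. In bulk RNA, more cells of a type and more RNA per cell cannot be told apart.

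Other astrocyte genes were also high in that library. On the list of astrocyte transporters and channels, 5 of the 8 tested genes were at least 2-fold above every other WT sample in WT replicate 4, and the median difference of its log-CPM from the mean of WT replicates 1 to 3 was 1.16 (log2), beside 0.01 over all genes tested. The list of secreted and matrix proteins had 4 of 9 and a median of 0.74, and the gliogenic regulators had 2 of 12 and a median of 0.39. Metabolic genes had 1 of 5 and a median of 0.11, the BMP arm 1 of 10 and 0.15, the reactive genes 0 of 2 and -0.11, the hyaluronan genes 0 of 6 and -0.19, and the gp130-JAK-STAT arm 0 of 10 and 0.09. Relatives of the 10 genes by family had 1 of 14 and a median of 0.30. Among genes picked after their values were seen, Sparcl1, a secreted glycoprotein of astrocytes, had 104, 115, 46.9 and 924 CPM in WT and 89.0, 109.9 and 102 CPM in Smchd1-null. Slc1a2, a glutamate transporter, had 18.1, 11.8, 14.4 and 65.8 CPM in WT and 12.8 to 22.1 CPM in Smchd1-null. Ndrg2, Clu and the calcium-binding relative S100a6, also picked in this way, were 4.67, 3.87 and 6.41 times the mean of the other WT samples.

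Some markers of other lineages were high in it as well. Of the oligodendrocyte lineage, 4 of 8 tested markers were at least 2-fold above every other WT sample in WT replicate 4, with a median difference of 2.10 (log2), and the summed level was 904 to 1005 CPM in WT replicates 1 to 3, 1438 CPM in WT replicate 4 and 923 to 954 CPM in Smchd1-null. Picked after its values were seen, Mbp, which encodes a protein of myelin, had 96.2 CPM in WT replicate 4 and at most 4.44 CPM in any other WT sample, whereas Mog, which marks finished myelin and was picked likewise, had at most 1.13 CPM anywhere. Also picked in this way, Gpr17, a receptor of differentiating oligodendrocyte precursors, had 23.4, 26.9, 3.15 and 205 CPM in WT, and Sox10, their defining transcription factor, had 8.06, 14.9, 2.10 and 41.3 CPM. Olig1 and Olig2, transcription factors of the lineage picked after their values were seen, did not follow, with 92.1 and 654 CPM in WT replicate 4 against 85.3 to 98.8 CPM and 688 to 822 CPM in the other WT samples. Of the neuronal list, 2 of 6 tested genes passed the 2-fold mark, and WT replicate 4 was the highest WT sample for 4 of all 7 genes. The sum was 372 to 400.0 CPM in WT replicates 1 to 3, 419 CPM in WT replicate 4 and 361 to 382 CPM in Smchd1-null. Dcx of migrating neuroblasts had 11.97, 8.66, 3.15 and 36.2 CPM in WT. Map2 and Rbfox3, picked after their values were seen, did not follow. They had 342 and 2.74 CPM in WT replicate 4 against 340 to 362 CPM and 2.20 to 5.51 CPM in the other WT samples. The list of neural stem cells and radial glia had 0 of 7, a median of 0.15 and a sum of 8555 to 10407 CPM in WT replicates 1 to 3, 13346 CPM in WT replicate 4 and 8234 to 9764 CPM in Smchd1-null. Nes, the intermediate filament of stem cells, was lowest in WT replicate 4 with 211 CPM against 283 to 409 CPM in the other WT samples. The ependymal list had 0 of 1 tested. Their part in the levels of the 10 genes was not tested.

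**Figure D3:**
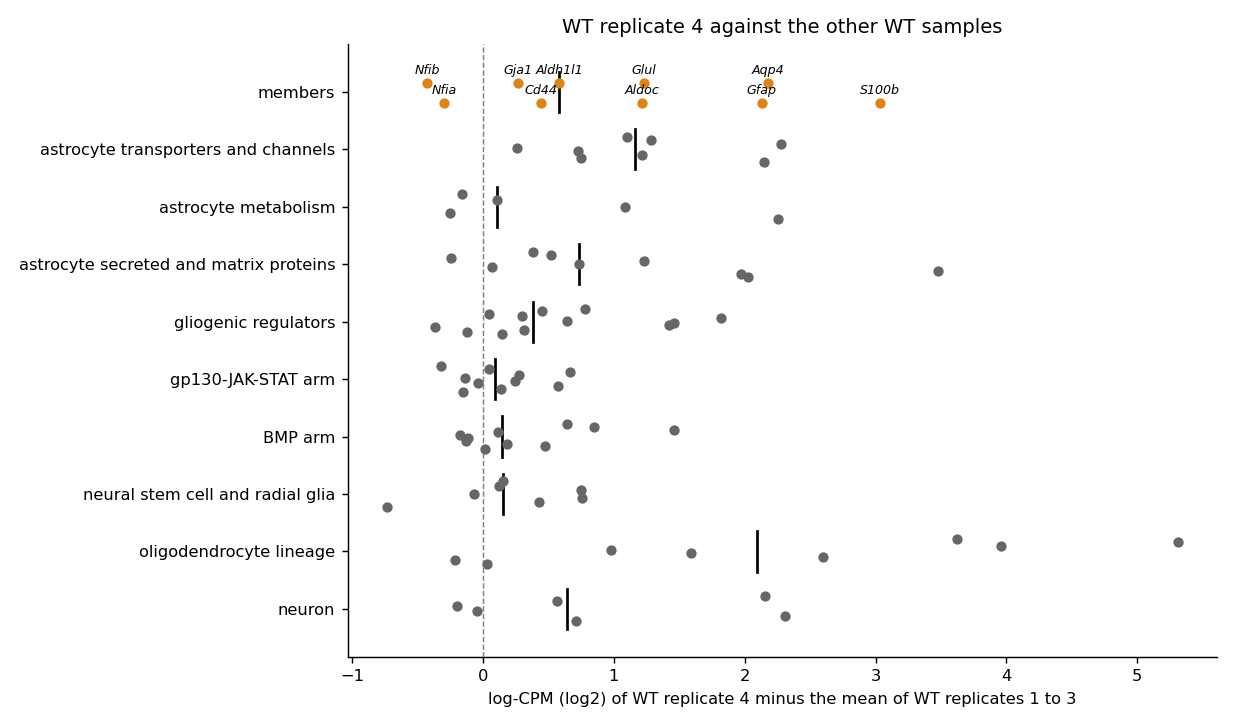
Difference in log-CPM (log2) between WT replicate 4 and the mean of WT replicates 1 to 3 for the 10 genes (orange) and for tested genes of other lists (grey), with the median of the tested genes as a black line. S100b, Aqp4 and Gfap lie beyond 2, Nfia and Nfib lie below 0, and oligodendrocyte lineage markers reach furthest to the right.

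Genotype was then compared for the same genes, which is the comparison of the design. Of the 10 genes, Aldoc passed an adjusted p of 0.25, the threshold used with this dataset, and was lower in Smchd1-null. Its mean was 267 ± 86.1 CPM in Smchd1-null (SD, n = 3) and 480.0 ± 240.1 CPM in WT (SD, n = 4), which gave a log2 fold change of -0.81 ± 0.21 (SE, limma, adjusted p = 0.233). That was 1 of 9 genes tested, beside 0.609% of all tested genes called lower and 0.474% called higher. None of the 10 genes was called higher, and none passed an adjusted p of 0.05. Without WT replicate 4 the log2 fold change of Aldoc was -0.66 (adjusted p = 0.301, limma), with the batch share as a covariate -0.45 (adjusted p = 0.389, limma) and with edgeR -0.85 (adjusted p = 0.858). Of 19 alternatives 6 kept the call, and adjusted p ranged from 0.0350 to 1.00. With 1 sample left out, the call remained without WT replicate 2 or Smchd1-null replicate 3 and was lost without any of the other 5, the log2 fold change lying between -0.95 and -0.53.

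Gja1 and Glul were also lower on average in Smchd1-null but did not pass this threshold. Gja1 had 118 ± 22.6 CPM across WT (SD, n = 4) and 90.9 ± 34.1 CPM across Smchd1-null samples (SD, n = 3), with a log2 fold change of -0.58 ± 0.19 (SE, 95% interval -0.98 to -0.18, adjusted p = 0.288, limma). Glul had 144 ± 74.1 CPM and 83.1 ± 9.29 CPM, with -0.50 ± 0.22 (SE, 95% interval -0.96 to -0.04, adjusted p = 0.336, limma). With Aldoc, these were 3 of 9 genes at an unadjusted p under 0.05 in the lower direction, against 6.74% of all tested genes, and 0 of 9 in the higher direction, against 7.11%. Without Smchd1-null replicate 3, the null sample highest for most of these genes, Gja1 (-0.73, adjusted p = 0.0350, limma) and Glul (-0.50, adjusted p = 0.201, limma) passed the threshold, but so did 11.6% of all 13395 genes then tested in the lower direction. Gja1 also passed without WT replicate 2 (-0.70, adjusted p = 0.0721, limma), where 11.1% of 12891 genes were called lower. Other fits gave Gja1 a smaller difference, with -0.37 for edgeR (adjusted p = 0.858), -0.24 with the replicate block (adjusted p = 0.868, limma) and -0.18 with the batch share as a covariate (adjusted p = 0.748, limma). Without Smchd1-null replicate 1 or 2 it was -0.29 or -0.30 (adjusted p = 0.996 and 1.00, limma). Glul was at -0.33 without WT replicate 4 (adjusted p = 0.467, limma), where 0.171% of all tested genes were called lower, and at -0.80 with edgeR (adjusted p = 0.858), which called 0.015% lower. In no gene of the 10 were the groups free of overlap in CPM, as they were in 5.53% of all tested genes.

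S100b had the largest fitted difference and one of the widest intervals, 22.7 ± 28.4 CPM in WT (SD, n = 4) against 4.83 ± 2.67 CPM in Smchd1-null (SD, n = 3). Its log2 fold change was -1.26 ± 0.65 (SE, 95% interval -2.66 to 0.14, adjusted p = 0.395, limma), -0.78 without WT replicate 4 and -2.20 with edgeR, and it passed the threshold without Smchd1-null replicate 3 (-1.35, adjusted p = 0.247, limma), as 11.6% of all tested genes did there in the lower direction. Gfap had a log2 fold change of -1.24 ± 0.90 (SE, 95% interval -3.16 to 0.68, adjusted p = 0.526, limma) at 2.43 ± 2.53 CPM across WT (SD, n = 4) and 1.85 ± 2.55 CPM across Smchd1-null samples (SD, n = 3). The difference of Gfap changed sign to 0.32 without Smchd1-null replicate 1, the sample with 0 counts. Over 11 alternatives other than leaving out each sample it lay between -1.32 and -0.05. Among these it was -0.41 with edgeR, -0.19 with the batch share as a covariate and -1.01 without sample weights. Aqp4 was removed by the filter on low counts, and its mean log-CPM differed by -0.22 with all samples and by 0.33 without WT replicate 4.

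For the 4 remaining genes the fitted differences were small. Nfib had a log2 fold change of -0.23 (95% interval -0.52 to 0.07), Nfia of -0.22 (-0.52 to 0.09), Aldh1l1 of 0.15 (-0.22 to 0.52) and Cd44 of 0.13 (-0.27 to 0.52), with adjusted p between 0.449 and 0.768 (limma). The signs of Nfib and Cd44 held in 19 of 19 alternative fits, which do not include the differences within batches given below. Those of Aldh1l1 and Nfia did not, since Aldh1l1 had -0.0051 without Smchd1-null replicate 2 and Nfia had 0.050 with batch as a covariate and WT replicate 1 left out, while Nfia passed the threshold at -0.29 without WT replicate 2 (adjusted p = 0.247, limma), where 11.1% of all tested genes were called lower. In the reported fit, a change of Nfia or Nfib as large as the fitted one of Aldoc lay outside their intervals. The smaller Aldoc value of -0.45, fitted with the batch share as a covariate, lay inside these intervals of Nfia and Nfib. Their mean levels were 115 ± 20.96 and 223 ± 43.1 CPM in WT (SD, n = 4) and 108 ± 13.8 and 203 ± 17.4 CPM in Smchd1-null (SD, n = 3).

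Within batches, log-CPM differences were taken without WT replicate 1, which is in both. In batch 1, with WT replicate 2 and Smchd1-null replicates 1 and 2, they were -0.46 for Aldoc, -0.27 for Gja1, -0.75 for Glul and -1.70 for S100b. In batch 2, with WT replicates 3 and 4 and Smchd1-null replicate 3, they were -0.63, 0.05, -0.86 and -0.98. The batch 1 values rest on 1 WT sample, and the batch 2 values on 1 null sample and on WT replicate 4. Without WT replicate 4, batch 2 was a comparison of 1 sample with 1. Its values were then -0.08 for Aldoc, 0.13 for Gja1, -0.21 for Glul and 1.06 for S100b. Aldoc and Glul were thus lower in Smchd1-null in both batches with WT replicate 4 included, and S100b changed sign without it. In WT replicates 1 to 3, log-CPM lay between 8.22 and 8.66 for Aldoc and between 6.48 and 7.09 for Glul. The batch 2 differences of Aldoc and Glul without WT replicate 4 were smaller than this spread, so they cannot show a direction. For Gfap the signs differed, with -1.99 in batch 1 and 0.90 in batch 2, or 2.10 without WT replicate 4. Nfia had 0.05 in batch 1 and 0.12 in batch 2, or -0.10 without WT replicate 4. Nfib had -0.01 in batch 1 and 0.03 in batch 2, or -0.23 without WT replicate 4. The signs of both thus did not hold within batches.

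**Figure D4:**
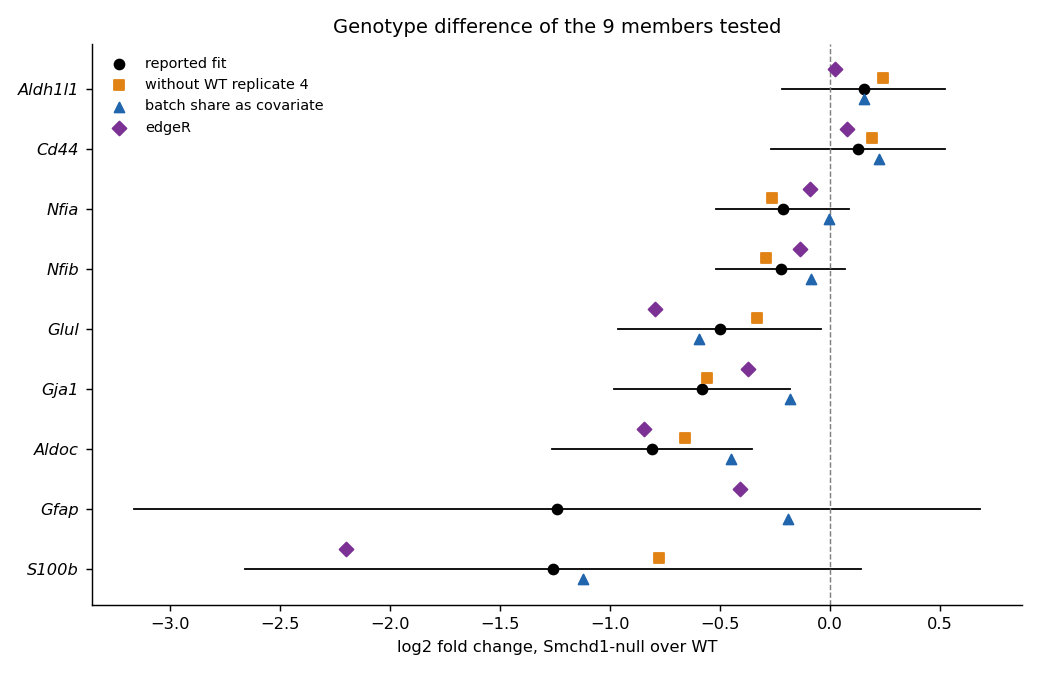
Log2 fold change of Smchd1-null over WT for the 9 genes tested, with the 95% interval of the reported fit as a line and the values of 3 alternatives as coloured symbols (Gfap was not tested without WT replicate 4). In the reported fit, Aldh1l1 and Cd44 lie right of 0 and all other genes lie left of it. Only the intervals of Aldoc, Gja1 and Glul lie wholly left of 0, and those of S100b and Gfap are the widest.

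The wider gene lists of the astrocyte programme held 93 different genes, of which 71 were tested. Called lower were 4 and called higher 0 (limma, adjusted p under 0.25), beside 0.609% and 0.474% of all tested genes. At an unadjusted p under 0.05 there were 19 lower and 2 higher, beside 6.74% and 7.11%. Fitted values were below 0 for 51 of 71 genes with a median of -0.22, beside 49.4% and a median of 0.005 over all tested genes. These counts by direction, and those of the single lists below, include WT replicate 4 and were not taken without it. Without WT replicate 4, 1 list gene was called and 17 of 71 had an unadjusted p under 0.05 (limma). Of all 12864 genes then tested, 1377 had such a p. With edgeR 0 list genes were called, and 16 had an unadjusted p under 0.05. With 1 sample left out, Slc6a11 was called except without Smchd1-null replicate 1 or 2, and the other 3 (Slc4a4, Fgfr3 and Cemip2) were called without WT replicate 2 or Smchd1-null replicate 3 and in no other of these fits.

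Of the transporters and channels, 2 of 8 tested genes were called lower and all 8 were fitted below 0, beside 0.609% and 49.4% of all tested genes. At an unadjusted p under 0.05 (limma), 6 of the 8 were lower and 0 higher, beside 6.74% and 7.11%. These counts include WT replicate 4, which lay above the other WT samples by a median of 1.16 (log2) on this list. Slc6a11, a GABA transporter of astrocytes, had 90.1, 86.4, 93.3 and 209 CPM in WT and 32.3, 42.9 and 59.3 CPM in Smchd1-null. Every Smchd1-null value was below every WT value, with or without WT replicate 4, and the log2 fold change was -1.31 ± 0.23 (SE, limma, adjusted p = 0.0498). Slc4a4, the sodium bicarbonate cotransporter, had 182, 135, 153 and 258 CPM in WT and 94.2, 98.8 and 140.3 CPM in Smchd1-null, with a log2 fold change of -0.72 ± 0.17 (SE, limma, adjusted p = 0.176). Here Smchd1-null replicate 3 reached into the WT range, and without WT replicate 4 the log2 fold change was -0.64 and the call was lost, as it was without 4 of the other 6 samples. Slc1a3, the glutamate transporter of radial glia, had the highest level of this list, with 573 to 1009 CPM in WT and 460 to 585 CPM in Smchd1-null, and did not pass (log2 fold change -0.39, adjusted p = 0.301, limma).

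Regulators of gliogenesis and their signals came next. Of 12 tested regulators 1 was called lower and 11 were fitted below 0, beside 0.609% and 49.4% of all tested genes. At an unadjusted p under 0.05 (limma), 3 were lower and 1 higher, beside 6.74% and 7.11%. The gene called was Fgfr3, a receptor of FGF that marks astrocyte precursors. Fgfr3 had 93.3, 98.0, 86.3 and 127 CPM in WT and 62.3, 67.1 and 79.9 CPM in Smchd1-null (log2 fold change -0.51 ± 0.14 SE, limma, adjusted p = 0.233). Its groups did not overlap with or without WT replicate 4. The call was lost without that sample, at a log2 fold change of -0.45, and also without WT replicate 1 or 3 or Smchd1-null replicate 1 or 2. Sox9, a partner of the NFI factors, had 284 ± 47.9 CPM across WT (SD, n = 4) and 241 ± 16.6 CPM across Smchd1-null samples (SD, n = 3), and Id3, a target of BMP, had 481 ± 141 CPM and 375 ± 53.3 CPM, neither of them called (adjusted p = 0.408 and 0.613, limma). In the gp130-JAK-STAT arm 0 of 10 tested genes were called, with 2 of 10 at an unadjusted p under 0.05 in the lower direction and 0 in the higher, beside 6.74% and 7.11% of all tested genes. Its most abundant members were the transducer Stat3, with 109 ± 13.7 and 98.6 ± 12.002 CPM, and the kinase Jak2, with 71.9 ± 8.70 and 56.8 ± 5.87 CPM. The BMP arm also had 0 of 10 called, with 2 lower and 1 higher at an unadjusted p under 0.05, and its target Id2 had 120.3 ± 40.9 CPM in WT and 144 ± 13.4 CPM in Smchd1-null. Picked after its values were seen, the receptor gene Notch1 had 1.78, 2.25 and 4.53 CPM in the 3 samples of batch 1 only and 14.4 to 19.1 CPM in the other 4, of both genotypes.

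Metabolic, secreted and reactive genes were not called in either direction. The metabolic list had 0 of 5, with Acsbg1 of fatty acid activation at 299 ± 22.7 CPM across WT (SD, n = 4) and 277 ± 3.43 CPM across Smchd1-null samples (SD, n = 3) and Phgdh of serine synthesis at 172 ± 15.6 and 182 ± 15.8 CPM. Secreted and matrix proteins had 0 of 9, although all 9 were fitted below 0, beside 49.4% of all tested genes. This direction was counted only with WT replicate 4, which lay above the other WT samples by a median of 0.74 (log2) on this list. At an unadjusted p under 0.05 (limma), 2 were lower and 0 higher, beside 6.74% and 7.11%. Sparc had 817 ± 139 and 621 ± 63.7 CPM, and Tnc had 612 ± 159 and 642 ± 81.1 CPM. Genes induced in reactive astrocytes were hardly read, and only 2 of 10 entered the test. Of these, Timp1 had 12.2 ± 2.32 and 12.3 ± 3.29 CPM, and Cp had 8.47 ± 2.08 and 6.24 ± 1.65 CPM, with adjusted p of 0.778 and 0.324 (limma). Aspg had 0 counts in all 7 samples, which allows up to 1.13 CPM in the smallest library. Serpina3n, picked after its values were seen and too low to be tested, had 0.222 to 0.524 CPM in WT, below the floor in each sample, and 1.88, 2.66 and 2.81 CPM in Smchd1-null.

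Relatives of the 10 genes and partners of Cd44 were also examined. Among 20 relatives by family 14 were tested and 0 called. At an unadjusted p under 0.05 (limma), 1 was lower and 1 higher, beside 6.74% and 7.11% of all tested genes. The filament gene Vim, a relative of Gfap, had 2262 ± 81.6 CPM across WT (SD, n = 4) and 2490.0 ± 76.8 CPM across Smchd1-null samples (SD, n = 3), and Nes had 319 ± 89.0 and 323 ± 79.5 CPM. S100a4, a relative of S100b, had 0 counts throughout. Of 6 tested hyaluronan genes 1 was called lower and 3 were fitted below 0, beside 0.609% and 49.4% of all tested genes. At an unadjusted p under 0.05 (limma), 1 was lower and 0 higher, beside 6.74% and 7.11%. The gene called was Cemip2, a surface protein linked to hyaluronan breakdown. Cemip2 had 28.6, 16.7, 23.6 and 16.8 CPM in WT and 11.3, 13.4 and 11.7 CPM in Smchd1-null (log2 fold change -0.82 ± 0.21 SE, limma, adjusted p = 0.233). The groups did not overlap, WT replicate 4 was not raised, and the call was lost in the fit without it at a larger log2 fold change of -0.89, as it was without WT replicate 1 or 3 or Smchd1-null replicate 1 or 2. The most abundant genes of this list were the hyaluronan receptor Hmmr, with 100.5 ± 7.91 and 99.9 ± 2.14 CPM, and Hyal2, with 58.8 ± 13.98 and 67.1 ± 8.55 CPM.

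Finally, the genes whose profile over the 7 samples was most like that of a variable member were listed, as a description. Likeness was the root mean square difference of mean-centred log-CPM, over 11735 or 11736 tested genes with a mean log-CPM of at least 2. For S100b the nearest were Pla2g7 (0.37), Dcx (0.41) and Mmd2 (0.41), and for Gfap they were Tmeff2 (0.65), Pla2g7 (0.74) and Enpp2 (0.76). Pla2g7, which encodes a phospholipase, had 14.7, 25.1, 11.5 and 103 CPM in WT and 6.01, 10.4 and 17.1 CPM in Smchd1-null, so that it repeated the high value of WT replicate 4 and the order of the Smchd1-null samples. Aqp4 was nearest to Alcam (0.27), Tmem178b (0.28) and Plppr1 (0.29). Aldoc was nearest to S1pr1 (0.14), Hsdl2 (0.15) and Sgip1 (0.16), and Glul to Ttyh1 (0.10), Pld2 (0.12) and Nedd4l (0.13). S1pr1, a receptor of sphingosine phosphate, had 22.5, 17.1, 23.1 and 48.4 CPM in WT and 11.6, 15.6 and 20.8 CPM in Smchd1-null. Ttyh1, a membrane protein, had 83.8, 119, 85.7 and 220 CPM in WT and 53.3, 75.2 and 76.2 CPM in Smchd1-null. All 7 points of each comparison come from the same libraries.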

How the data were processed

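NSC reads of 4 WT and 3 Smchd1-null samples were base-called with Guppy, aligned to mm10 with minimap2 (2.17 in the submitters' processing notes) and assigned to Gencode M23 genes with featureCounts by the authors. The deposited values are raw counts per gene with a gene length in bases (a unit of its own, used as given). Batches of WT replicate 1 had been summed. Strand was not stated to be used, so antisense overlaps cannot be separated.

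Symbols came from Gencode M21 on GRCm38 with the version ignored (55154 of 55335 identifiers). Genes were kept with filterByExpr (13305 genes) and scaled by TMM. The fit was voomWithQualityWeights in limma 3.58.1 (edgeR 4.0.16, DESeq2 1.42.0, R 4.3.3), genotype only, two-sided, Benjamini-Hochberg adjustment over all tested genes. It was tested on simulated data. Log-CPM used a prior count of 2. Total counts were 2.74 to 7.74 M, and the lowest chi-square per degree of freedom between samples of a group, 2.75, gave no sign of a sample deposited under 2 names.

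Members and lists were chosen with earlier results of these data known. Named were the 10 members, list genes with an adjusted p under 0.25, the 2 most abundant genes of each pathway list, genes with 0 counts, Smchd1 and, for members with a log-CPM range over 1.5, the 3 genes of nearest profile. Genes picked after their values were seen are marked. Alternatives were other tests, weights, scalings, filters, batch, replicate block and length terms, and each sample left out. The order of levels and the batch 2 differences without WT replicate 4 were added after seeing the data. Some genes are not reported here.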

Additional observations from a re-analysis of the deposited data

Results flagged for a closer look

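In the group of 4 WT samples, CPM values were examined for a single sample far from the others (Dixon's test at the 95% level) for 58 named genes. This gave 17 genes, every time for WT replicate 4, and 3 genes on the log-CPM scale. A rate of 1 in 20, or 2.9 genes, would hold by chance only for independent genes picked without sight of their values. Several of the genes were named because of their high value in this sample, and all share the same library. The chance rate therefore does not apply, and the count is a description. Among the 10 astrocyte lineage genes there were 2, Aqp4 with 7.20 CPM and S100b with 65.0 CPM.

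Of other astrocyte genes, WT replicate 4 was set apart for Slc6a11 (209 CPM), Slc1a3 (1009 CPM), Slc1a2 (65.8 CPM), Sparcl1 (924 CPM), Ndrg2 (145 CPM), Clu (63.6 CPM) and S100a6 (44.6 CPM). It was also set apart for genes of like profile, Enpp2 (71.5 CPM), Pla2g7 (103 CPM), Tmeff2 (74.6 CPM), Mmd2 (155 CPM), Tmem178b (13.2 CPM) and Plppr1 (26.6 CPM), and for the oligodendrocyte lineage genes Mbp (96.2 CPM) and Gpr17 (205 CPM).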

How the results depend on the processing

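Past an adjusted p of 0.25 were 144 of all tested genes, 1 of the 10 members (Aldoc) and 4 genes of the pathway lists. These 3 counts were 8, 0 and 0 with edgeR, 32, 0 and 1 with DESeq2, 10, 0 and 0 without sample weights, 22, 0 and 0 with all genes of at least 1 count, 346, 2 and 5 with at least 10 counts in every sample, 74, 0 and 2 with the batch share as a covariate, 31, 0 and 1 with batch as a covariate and WT replicate 1 left out, and 68, 0 and 1 with the length trend removed. The members with an unadjusted p under 0.05 numbered 2 to 4 in the fits that called 0 of them with all samples. Leaving out 1 sample gave 1 to 3153 genes, 0 to 4 members and 0 to 29 list genes. The highest counts came without Smchd1-null replicate 3 (members Aldoc, Gja1, Glul and S100b), and 2924 genes with 3 members (Aldoc, Gja1 and Nfia) came without WT replicate 2. The lowest, 1 and 2 genes with 0 members, came without Smchd1-null replicates 1 and 2, while 11 came without WT replicate 1 and 43 each without WT replicates 3 and 4.

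The replicate block gave 129 genes, 0 members and 3 list genes, with the length trend removed as well 171 genes, 2 members (Aldoc and Glul) and 3 list genes. Whether samples of the same number belong together was not given, and they were not treated as pairs in the reported fit. Deviations of same-numbered samples correlated at -0.04, 0.36 and 0.09, and not every sample correlated best with its own number. With so few samples per group these correlations cannot decide whether the numbers mark pairs.

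Over 167 alternatives for the 9 tested members, 144 kept direction and side of the threshold, 13 lost the call (all Aldoc), 7 gained one and 3 changed sign. Those 3 were Gfap at 0.32 without Smchd1-null replicate 1, Aldh1l1 at -0.0051 without Smchd1-null replicate 2, and Nfia at 0.050 with batch as a covariate and WT replicate 1 left out. With 1 sample left out, Gfap ranged from -1.85 to 0.32 and Aldh1l1 from -0.0051 to 0.24. In the order of levels, 8 members changed place with CPM in place of CPM per kilobase, and 3 without WT replicate 4. The cause of these shifts was not tested. Depth limits Gfap and Aqp4, with 79 and 82 counts in all.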
